A study of Mus musculus with 6 samples.

Results

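The colony stimulating factor (CSF) receptors and the transcription factors of the macrophage lineage were followed in bone-marrow-derived macrophages (BMDMs) under excess salt. The group was set by gene symbol and comprised the receptor genes *Csf1r*, *Csf2ra*, *Csf2rb* and *Csf3r* and the factor genes *Spi1*, *Irf8*, *Maf*, *Cebpa* and *Cebpb*. All 9 of the 9 symbols were found among 15903 tested genes, each with 10 or more counts summed over the 6 libraries. BMDMs are macrophages grown in culture from marrow cells. Here they came from *Cx3cr1*GFP mice on the C57BL/6J background, in which GFP sits in the *Cx3cr1* locus, and both groups carry this allele. The marrow cells of 3 mice were cultured with 10 ng/ml of the growth factor M-CSF, and the medium was partly renewed after 7 days. The control group (n = 3, labelled unstim) received no further stimulus, and the NaCl group (n = 3) received 62 mM excess NaCl for 24 h, with 1 library of each kind per mouse and adherent cells only. The ages of the mice are not given in the sources used here. Mouse numbers 1, 2 and 3 occur in both groups, so each NaCl library has a control library of the same mouse.

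CSF receptors couple secreted growth factors to the survival and maturation of myeloid cells. *Csf1r* encodes the M-CSF receptor, a receptor tyrosine kinase on which macrophages depend. *Csf2ra* and *Csf2rb* encode the ligand-binding and the signalling chain of the GM-CSF receptor, and *Csf3r* encodes the G-CSF receptor, which is best known from neutrophils. *Spi1* encodes PU.1, the master factor of myeloid cells and a known activator of CSF receptor genes, while *Irf8* favours monocytes over neutrophils. *Cebpa* and *Cebpb* encode C/EBP factors of myeloid differentiation and of inflammatory gene expression, and *Maf* encodes c-Maf, which restrains proliferation in mature macrophages.

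Sequences upstream of the transcription start were available from RefSeq (build GRCm38.p6) for 5 of the 9 genes, with 6 entries in all because *Irf8* has a pair of starts. *Csf1r*, *Csf2rb*, *Spi1* and *Maf* had no entry. The windows of *Csf3r* and *Cebpb* are shown because these genes changed in opposite directions and passed the test with mice paired. That of *Csf2ra* is shown because it holds a motif side by side with its copy. Each is the 250 bases before the start, 5′ to 3′ along the gene, with the matched motifs in capitals.
*Csf3r*, chr4:126024409-126024658, plus strand: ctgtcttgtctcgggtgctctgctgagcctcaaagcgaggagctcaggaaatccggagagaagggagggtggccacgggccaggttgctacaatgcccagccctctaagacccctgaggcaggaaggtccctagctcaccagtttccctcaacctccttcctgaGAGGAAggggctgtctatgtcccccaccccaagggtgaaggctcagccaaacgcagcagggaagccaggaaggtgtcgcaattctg
*Cebpb*, chr2:167688665-167688914, plus strand: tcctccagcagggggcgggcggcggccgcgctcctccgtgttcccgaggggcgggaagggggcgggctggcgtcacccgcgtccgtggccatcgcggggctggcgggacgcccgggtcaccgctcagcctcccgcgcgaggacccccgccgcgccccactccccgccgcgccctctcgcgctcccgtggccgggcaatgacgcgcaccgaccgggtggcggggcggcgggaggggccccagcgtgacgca
*Csf2ra*, chr19:61228419-61228668, minus strand: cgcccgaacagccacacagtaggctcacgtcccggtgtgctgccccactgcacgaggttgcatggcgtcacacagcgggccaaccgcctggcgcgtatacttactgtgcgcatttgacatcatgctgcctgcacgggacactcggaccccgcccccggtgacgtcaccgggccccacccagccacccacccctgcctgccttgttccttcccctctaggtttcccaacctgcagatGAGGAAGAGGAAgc

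The letters searched on both strands were GAGGAA, the core of PU.1 sites, TTGCGCAA, a palindrome bound by C/EBP factors, TGGAAA, the core of sites of the osmotic regulator NFAT5, and TATAAA of the TATA box. None of these overlaps another among the matches found. *Csf3r* held GAGGAA from 86 to 81 bases before the start. *Csf2ra* held it at 14 to 9 and again at 8 to 3 bases before the start, so that both copies abut. No searched letters were found in the *Cebpb* window, of which 81.6% of bases were G or C, against 60.0% for *Csf3r* and 64.8% for *Csf2ra*. Of the other windows, that of *Cebpa* held TGGAAA and TATAAA and the first of *Irf8* held TATAAA. Of 32851 promoter windows of the same length, 23.3% held GAGGAA, 0.164% TTGCGCAA, 18.6% TGGAAA and 12.4% TATAAA. A match describes the sequence and no binding.

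With the mouse as a replicate block, *Csf1r* and *Cebpb* rose and *Csf3r* and *Maf* fell in NaCl-treated BMDMs (edgeR, adjusted p under 0.05), whereas *Csf2ra*, *Csf2rb*, *Spi1*, *Irf8* and *Cebpa* did not pass the test. The rises were 1.65-fold for *Csf1r* and 1.63-fold for *Cebpb*, and the levels of *Csf3r* and *Maf* in NaCl were 0.513 and 0.567 times those in control. Each of these 4 genes moved the same way in 3 of 3 mice. Expression is given as CPM, the counts scaled to library size with TMM factors from edgeR, and changes as log2 fold changes of NaCl against control.

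The authors compared the groups with DESeq2, and their methods name no term for the mouse. The main test here without such a term was edgeR's quasi-likelihood test, with Benjamini-Hochberg adjustment over all 15903 genes and a threshold of 0.05. It called 0 of the 9 genes, and 4 had an unadjusted p-value under 0.05. That test called 0.478% of all genes higher and 0.176% lower. With the mouse as a block the same test called 2 of the 9 higher and 2 lower, where 4.6% of all genes were higher and 4.3% lower. DESeq2 without the block called *Csf1r* alone, beside 1.54% of all genes called higher and 0.975% lower. The median log2 fold change of the 9 genes was 0.14 without and 0.13 with the block, against -0.01 and -0.02 over all genes. In CPM, the 3 NaCl libraries lay wholly above the 3 control libraries for *Csf1r*, *Spi1* and *Cebpb*, which is 3 of 9 genes against 8.92% of all genes, and wholly below for 0 of 9 against 10.1%. Within mice, 4 of the 9 were higher in 3 of 3 mice and 2 were lower, against 20.1% and 23.4% of all genes.

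**Figure D1:**
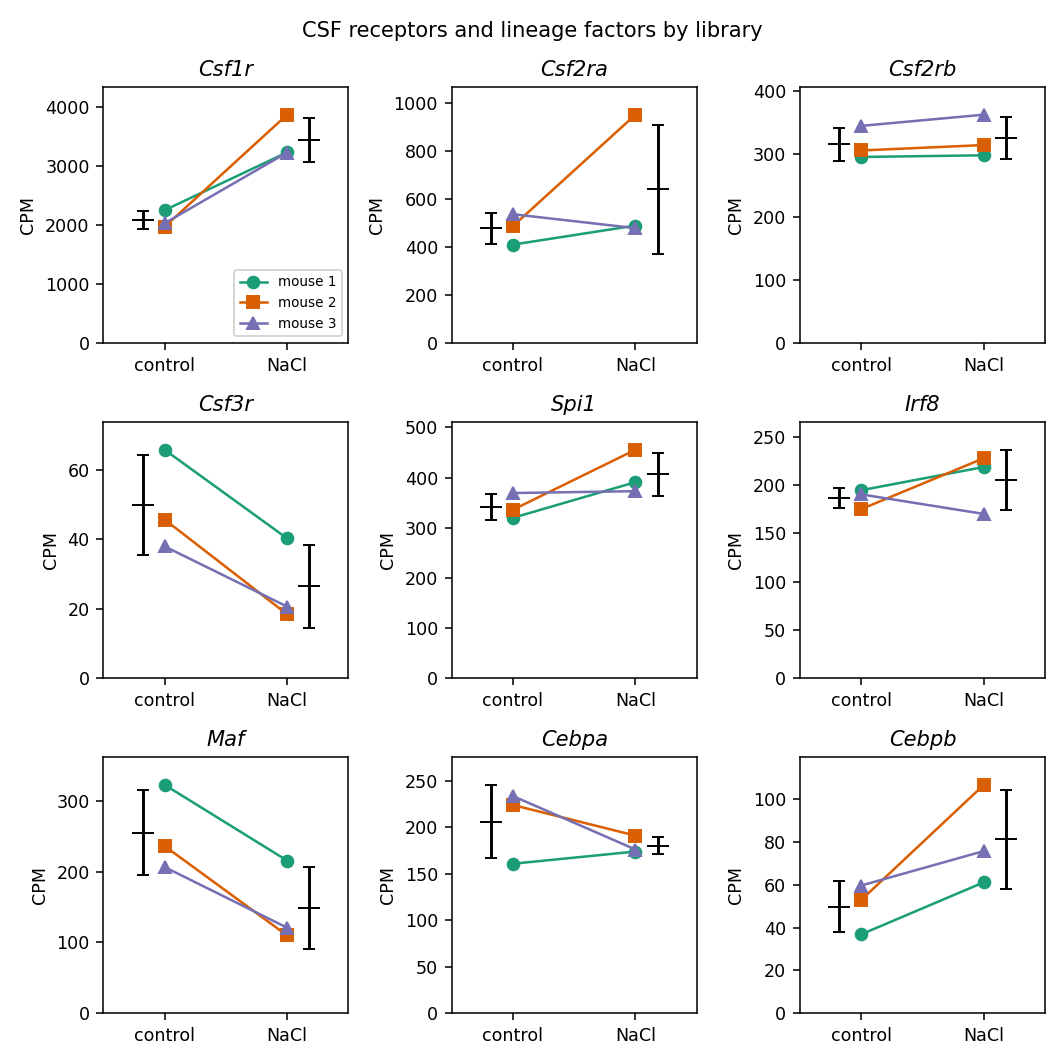
Expression in CPM of the 9 genes in the control and NaCl libraries, with a coloured line and marker for each of 3 mice and black bars for mean ± SD (n = 3 each). The lines of *Csf1r* and *Cebpb* climb in 3 of 3 mice and those of *Csf3r* and *Maf* descend in 3 of 3, while *Csf2ra* reached 953 CPM in mouse 2 and no more than 538 CPM in any other library.

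*Csf1r* (ENSMUSG00000024621.17, chromosome 18), the receptor of the M-CSF in the medium, was at 2251, 1969 and 2030 CPM in the control libraries of mice 1, 2 and 3. In NaCl it was at 3231, 3869 and 3228 CPM. The highest control value lies well below the lowest NaCl value, so the groups do not overlap. The means were 2083 ± 148 CPM in control against 3443 ± 369 CPM under NaCl (SD, n = 3 each), with a log2 fold change of 0.72, a standard error (SE) of 0.14 and adjusted p = 0.0523 by edgeR without the block. With the block the log2 fold change was again 0.72 (95% interval 0.47 to 0.98, adjusted p = 0.000298 in edgeR), and DESeq2 without the block gave an adjusted p of 0.000122. At rank 36 of 15903 genes by mean control CPM, *Csf1r* was among the most abundant transcripts of these cells. Of its exonic bases, 15.1% overlap *Hmgxb3* on the opposite strand, and the libraries hold no strand information. *Hmgxb3* was at 30.1 ± 3.30 CPM in control against 32.2 ± 5.06 CPM under NaCl, with a log2 fold change of 0.09 (adjusted p = 0.779 with the block in edgeR). In bulk RNA, fewer cells of a type and less RNA per cell cannot be told apart, which holds for this gene and each one that follows.

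The gene of the ligand, *Csf1*, fell with the block. BMDMs themselves make some M-CSF beside that in the medium, and *Csf1* was at 8.19, 8.42 and 8.93 CPM in the control libraries and at 2.79, 3.08 and 5.03 CPM in the NaCl libraries. The groups do not overlap. Its log2 fold change was -1.30 (SE 0.25 and adjusted p = 0.0563) in edgeR's test without the block and -1.29 (SE 0.23 and adjusted p = 0.00034) with it, and DESeq2 without the block gave an adjusted p of 0.00259. The counts behind these values were small, from 21 to 177 per library. *Il34*, the other ligand of the M-CSF receptor, and *Csf2*, which encodes GM-CSF, had 0 counts in each of the 6 libraries. *Csf3*, which encodes G-CSF, had 2 counts in NaCl replicate 1 and 0 in the others.

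*Csf2ra* (ENSMUSG00000059326.8, chromosome 19), the ligand-binding chain of the GM-CSF receptor, was at 411, 488 and 538 CPM in control, and at 491, 953 and 480 CPM in NaCl. The NaCl library of mouse 2 stands apart, and the other NaCl libraries lie within the control range. Across mice it amounted to a log2 fold change of 0.42 (95% interval -0.14 to 0.98, adjusted p = 0.54 in edgeR) without and 0.35 (95% interval 0.05 to 0.66, adjusted p = 0.149) with the block. The value with the block rests on mouse 2, since it was 0.055 without the libraries of mouse 2 (adjusted p = 0.841 in edgeR) and was 0.62 without those of mouse 3 (adjusted p = 0.00687).

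*Csf2rb* (ENSMUSG00000071713.7, chromosome 15), the signalling chain shared by the GM-CSF, IL-3 and IL-5 receptors, showed the least change of the 9. It was at 295, 305 and 344 CPM in control, and at 298, 314 and 362 CPM in NaCl. The order of the mice was the same in both groups, with mouse 3 highest. Its log2 fold change was 0.04 in edgeR with the block, with a 95% interval from -0.19 to 0.28, so that a change of the size of that of *Csf1r* lies outside the interval. Its paralogue *Csf2rb2*, an IL-3 receptor chain that lies on the same chromosome, holds the same sequence in 7.15% of the 75-base windows of *Csf2rb*, so that reads from these windows cannot be assigned to either. *Csf2rb2* was at 314 ± 25.3 CPM in control against 368 ± 53.2 CPM under NaCl (n = 3 each), which is a log2 fold change of 0.22 with the block (95% interval -0.01 to 0.46, adjusted p = 0.266 in edgeR).

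*Csf3r* (ENSMUSG00000028859.15, chromosome 4), the G-CSF receptor, had the largest fall of the 9. It was at 65.7, 45.7 and 37.9 CPM in control, and at 40.2, 18.4 and 20.6 CPM in NaCl. Mouse 1 was highest in both groups, and its NaCl value lies just above the control value of mouse 3, so the groups overlap although each mouse went down. The log2 fold change was -0.90 (SE 0.30 and adjusted p = 0.262) in edgeR's test without the block and -0.96 (SE 0.14 and adjusted p = 3.3e-05) with it. Counts ranged from 86 in NaCl replicate 3 to 752 in control replicate 3. In *Csf3r*, 3.13% of the 75-base windows occur in another annotated gene.

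Since *Csf3r* is a neutrophil gene too, a list of 13 neutrophil markers was set beside it. All 13 were tested, and their summed level was between 292 and 616 CPM in the control and between 313 and 433 CPM in the NaCl libraries, so the ranges overlap. With the block 0 of the 13 were higher and 3 were lower, namely *Mpo*, *Ngp* and *Lcn2*, where 4.3% of all genes were lower, and without it edgeR and DESeq2 called 0, while 2 had an unadjusted p under 0.05 in edgeR. The median log2 fold change of the 13 was -0.37 with the block, and all 13 were below 0, from -0.85 to -0.03. Without the block they ranged from -0.91 to 0.09. *Ly6g*, which defines mature neutrophils, had between 1 and 13 counts per library. The part of such cells in the fall of *Csf3r* was not tested.

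*Spi1* (ENSMUSG00000002111.9, chromosome 2), which encodes PU.1, was at 320, 336 and 369 CPM in control, and at 391, 456 and 373 CPM in NaCl. The groups do not overlap, but they come close in mouse 3, which holds both the highest control and the lowest NaCl value and has a log2 ratio of 0.01. Its log2 fold change was 0.25 (95% interval 0.00 to 0.49, adjusted p = 0.219 in edgeR) with the block and 0.25 (adjusted p = 0.471) without it. A change was therefore not detectable after adjustment, and the interval ends below the estimate for *Csf1r*.

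*Irf8* (ENSMUSG00000041515.11, chromosome 8), which steers progenitors toward monocytes, was at 195, 175 and 190 CPM in control, and at 219, 228 and 170 CPM in NaCl. It was higher in mice 1 and 2 and lower in mouse 3. With the block its log2 fold change was 0.13, with a 95% interval from -0.12 to 0.38 and an adjusted p of 0.595 in edgeR.

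*Maf* (ENSMUSG00000055435.7, chromosome 8), which encodes c-Maf, was at 322, 236 and 206 CPM in control, and at 215.5, 110 and 121 CPM in NaCl. As for *Csf3r*, mouse 1 was highest in both groups and the NaCl value of mouse 1 exceeded the control value of mouse 3. The log2 fold change was -0.77 (SE 0.26 and adjusted p = 0.261) in edgeR's test without the block and -0.82 (SE 0.12 and adjusted p = 5.7e-05) with it. Without NaCl replicate 1, *Maf* and *Csf3r* also passed without the block, with log2 fold changes of -1.14 and -1.35 and adjusted p-values of 0.0341 and 0.0346 in edgeR. In the other such fits without 1 library neither passed, with an adjusted p from 0.38 to 0.621 for *Maf* and from 0.379 to 0.621 for *Csf3r*. Of the exonic bases of *Maf*, 5.34% overlap the non-tested *Gm15655* on the opposite strand.

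*Cebpa* (ENSMUSG00000034957.11, chromosome 7), a factor of early myeloid commitment, was at 161, 224 and 234 CPM in control, and at 174, 191 and 176 CPM in NaCl. The control values were more spread than the NaCl values, and NaCl was the higher in mouse 1 and the lower in mice 2 and 3. With the block its log2 fold change was -0.17 (95% interval -0.43 to 0.08, adjusted p = 0.446 in edgeR). On the opposite strand *Gm45091* overlaps 1.93% of its exonic bases, and its mean was 0.523 CPM in control against 0.41 CPM under NaCl.

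*Cebpb* (ENSMUSG00000056501.4, chromosome 2), the C/EBP factor of activated macrophages, was at 36.8, 52.9 and 59.6 CPM in control, and at 61.1, 107 and 75.7 CPM in NaCl. The lowest NaCl value, that of mouse 1, lies just above the highest control value, that of mouse 3, so the groups part by a narrow margin while each mouse went up. The log2 fold change was 0.70 (SE 0.23 and adjusted p = 0.249) in edgeR's test without the block and 0.70 (SE 0.13 and adjusted p = 0.000732) with it. Of its exonic bases, 20.7% overlap *Peds1* (also named *Tmem189*) on the opposite strand. *Peds1* was at 156 ± 21.3 CPM in control against 155 ± 5.04 CPM under NaCl, with a log2 fold change of 0.00 (adjusted p = 0.996 with the block in edgeR).

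**Figure D2:**
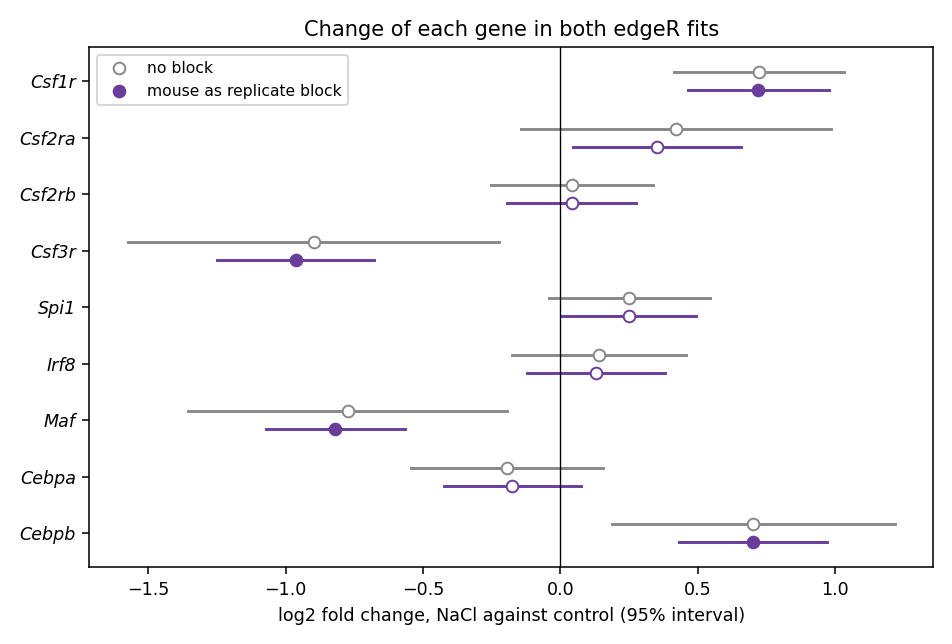
Log2 fold change of each gene in NaCl against control with its 95% interval, in edgeR's test without the block (grey) and with a block for mouse (purple); filled points have an adjusted p under 0.05. The point estimates hardly move between the fits, the intervals of *Csf3r*, *Maf*, *Cebpb* and *Csf2ra* narrow with the block, and the 4 filled points are *Csf1r*, *Cebpb*, *Csf3r* and *Maf*.

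The size of the change differed between mice. The log2 ratio of NaCl over control in mice 1, 2 and 3 was 0.52, 0.97 and 0.67 for *Csf1r*. It was 0.73, 1.01 and 0.34 for *Cebpb*. It was -0.71, -1.30 and -0.87 for *Csf3r* and -0.58, -1.10 and -0.77 for *Maf*. Mouse 2 had the largest ratio in each of these 4 genes, up or down, and in 7 of the 9 genes in all, where the same holds for 46.5% of all tested genes. With the block and the libraries of mouse 2 left out, the log2 fold changes were 0.60 for *Csf1r*, 0.54 for *Cebpb*, -0.77 for *Csf3r* and -0.66 for *Maf*. The 4 genes stayed past the threshold in each of the 3 fits with the block that left out 1 mouse.

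**Figure D3:**
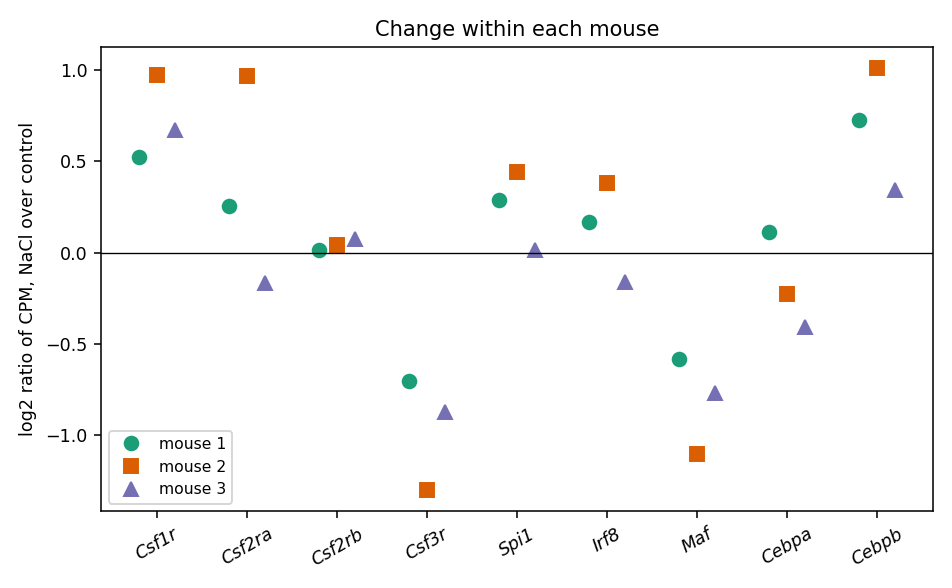
Log2 ratio of CPM, NaCl over control, within mouse 1 (circles), mouse 2 (squares) and mouse 3 (triangles) for each of the 9 genes, with a prior count of 2. *Csf1r* and *Cebpb* lie above 0 and *Csf3r* and *Maf* below 0 in 3 of 3 mice, with mouse 2 farthest from 0 in all 4, whereas *Csf2ra*, *Irf8* and *Cebpa* have mice on both sides.

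To compare levels between genes, CPM was divided by the exonic length in kb from GENCODE M21. In control libraries the order of mean levels per kb ran from *Csf1r* (361 ± 25.7 CPM per kb) over *Csf2ra* (167 ± 22.3), *Spi1* (127 ± 9.36), *Cebpa* (78.2 ± 15.0), *Csf2rb* (43.3 ± 3.57), *Cebpb* (33.1 ± 7.78), *Maf* (30.9 ± 7.31) and *Irf8* (26.5 ± 1.46) to *Csf3r* (13.8 ± 3.97; SD, n = 3 each). The ranges of *Cebpb* and *Maf* and of *Maf* and *Irf8* overlapped, and those of the other neighbours did not. In NaCl libraries *Cebpb* was at 54.0 ± 15.4 and *Maf* at 18.0 ± 7.05 CPM per kb, so that their ranges parted, while those of *Csf2ra* and *Spi1* and of *Csf2rb* and *Cebpb* came to overlap. *Csf1r* remained highest at 596 ± 63.9 CPM per kb and *Csf3r* lowest at 7.32 ± 3.33.

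**Figure D4:**
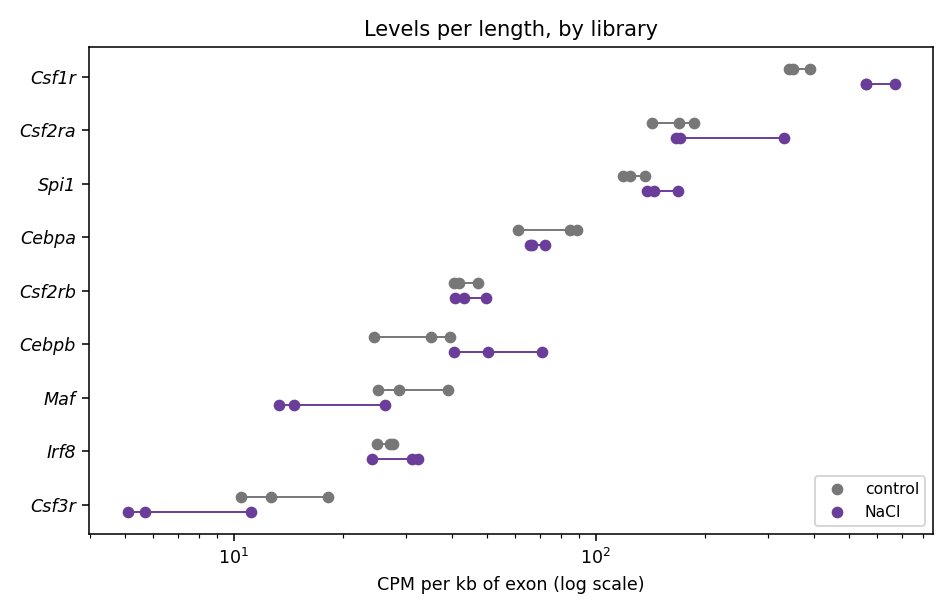
Level per length of the 9 genes, in CPM per kb of exon on a log axis, with 1 point per library and a line over the range of the 3 control (grey) and 3 NaCl (purple) libraries. *Csf1r* stands above every other gene in both groups and *Csf3r* below, and the control points of *Cebpb*, *Maf* and *Irf8* overlap.

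The genes around the receptors were taken from 4 lists of 100 genes in all, of which 95 were tested. By edgeR, 1 of the 95 was called without the block, against 8 called higher and 7 lower with it. Over all genes, 0.478% were higher and 0.176% lower without the block, and 4.6% and 4.3% with it. The first list, of partners and ligands, had 3 tested genes of 7, and *Csf1* was the 1 that fell with the block. *Il3ra*, the ligand-binding chain of the IL-3 receptor, was at 51.7 ± 3.49 CPM in control against 46.9 ± 16.7 CPM under NaCl. Of 28 genes that carry or restrain M-CSF receptor signals, among them the kinases *Src* and *Syk* and the phosphatases *Ptpn6* and *Inpp5d*, 0 were higher and 1 was lower with the block. That gene was *Dok2*, which encodes an adaptor that restrains tyrosine kinase signals, with 128 ± 13.7 CPM in control against 94.8 ± 9.65 CPM under NaCl (log2 fold change -0.43, adjusted p = 0.0158 with the block in edgeR, and 0.232 without). The median log2 fold change of the 28 was -0.09 in both fits.

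Of 14 genes of JAK-STAT signalling, through which the GM-CSF and G-CSF receptors act, 2 were higher and 0 lower with the block. The shares over all genes were 4.6% and 4.3%, and the median log2 fold change of the 14 was -0.02. The kinase gene *Pim1*, a STAT target, was at 47.4, 61.2 and 38.1 CPM in control, and at 58.6, 89.9 and 50.5 CPM in NaCl, which is a log2 fold change of 0.43 (adjusted p = 0.0251 with the block in edgeR, and 0.469 without). *Socs3*, which encodes an inhibitor of the G-CSF receptor, had only 4 to 45 counts per library, and its log2 fold change of 1.18 had an adjusted p of 0.0379 with the block and 0.453 without. Neither passed in DESeq2 with the block, with an adjusted p of 0.0618 for *Pim1* and 0.168 for *Socs3*. Among the edgeR fits with the block that left out 1 mouse, *Pim1* passed only without mouse 2 (adjusted p = 0.0393). *Socs3* passed only without mouse 3 (adjusted p = 0.0121). *Jak2*, *Stat3*, *Stat5a* and *Stat5b* did not pass in either fit.

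Of 50 tested genes of other lineage transcription factors, of 51 listed, 6 were higher and 5 lower with the block, where the shares over all genes were 4.6% and 4.3%, with a median of -0.06. *Klf2*, a factor of quiescence in leukocytes, was the only one called by edgeR without the block, where DESeq2 called *Klf2* as higher and *Egr1* and *Atf4* as lower (*Atf4* was named after its values were seen). It was at 21.6, 20.7 and 28.4 CPM in control, and at 41.8, 55.7 and 42.2 CPM in NaCl, which is a log2 fold change of 0.98 (SE 0.18 and adjusted p = 0.048 in edgeR), and 0.99 with the block (adjusted p = 4.6e-05). In edgeR without the block and without 1 library, the adjusted p of *Klf2* was 0.0366 without NaCl replicate 1 and between 0.0943 and 0.33 in the other fits. With the block, *Id1*, which encodes an inhibitor of helix-loop-helix factors, rose from 38.4 ± 33.9 to 76.3 ± 59.9 CPM. Its control values of 4.78, 37.7 and 72.6 CPM in mice 1, 2 and 3 spanned a wider range than the group means. NaCl gave a log2 fold change of 1.08 in edgeR with the block (adjusted p = 0.000378, and 0.111 in DESeq2 with it). Without the block the adjusted p of *Id1* was 0.687 in edgeR and 0.831 in DESeq2. The immediate early gene *Fos* rose from 157 ± 74.8 to 286 ± 79.1 CPM with the block, and its groups do not overlap. Its log2 fold change was 0.96 in edgeR with the block (adjusted p = 0.000298, and 0.144 in DESeq2 with it). Without the block the adjusted p of *Fos* was 0.334 in edgeR and 0.147 in DESeq2. *Egr1*, an early target of M-CSF signals, fell from 20.6 ± 1.2 to 11.4 ± 2.61 CPM, with a log2 fold change of -0.84 (adjusted p = 0.00124 with the block in edgeR, and 0.0971 without). *Spic*, which encodes a relative of PU.1 needed by splenic red pulp macrophages, was at low abundance, with 6.37, 4.08 and 3.53 CPM in control and 2.91, 1.45 and 1.44 CPM in NaCl. It fell with the block by 1.29 on the log2 scale (adjusted p = 0.00305 in edgeR, and 0.0603 in DESeq2 with the block). Without the block the adjusted p of *Spic* was 0.209 in edgeR and 0.115 in DESeq2.

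**Figure D5:**
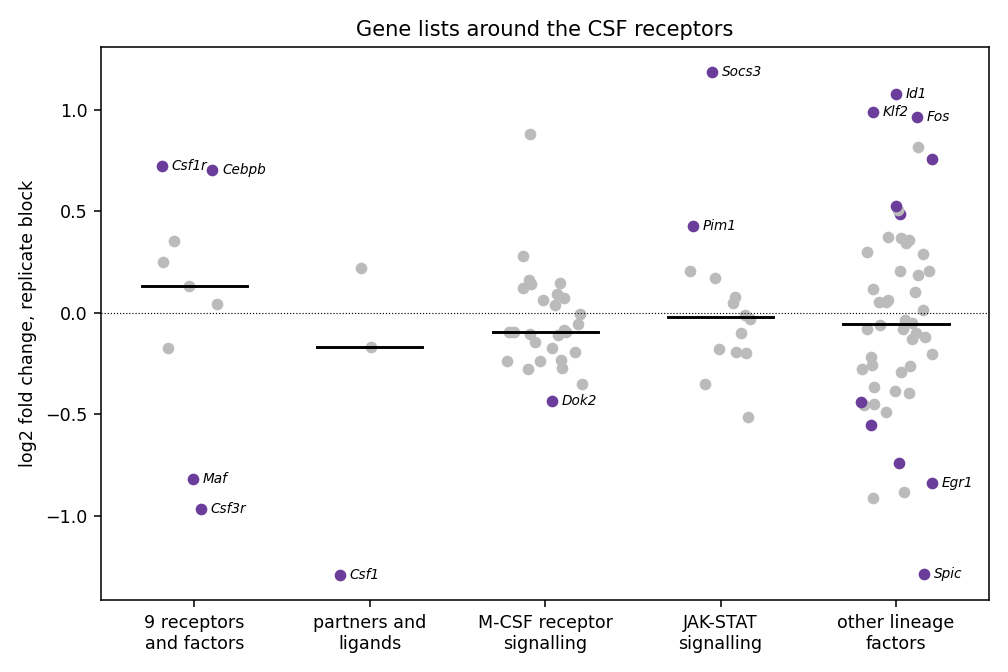
Log2 fold change with the mouse as a replicate block of the 9 receptor and factor genes and of the tested genes of 4 surrounding lists, with 1 point per gene, purple for an adjusted p under 0.05 and a black bar for the median. *Csf1r* and its ligand gene *Csf1* lie on opposite sides of 0 at 0.72 and -1.29, and the 28 M-CSF receptor signalling genes gather near 0 with a median of -0.09.

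The genes whose log2 CPM followed that of *Csf1r* most closely were *Mylip*, *Nf2* and *Ncapd2*, each with a Pearson coefficient of 0.996 over 6 libraries and out of 9923 other genes with a mean of at least 50 counts. These points share their libraries and fall into the same 2 groups, and the coefficients are a description. *Nf2* was at a mean of 93.8 CPM in control against 150 CPM under NaCl, and *Ncapd2* at 117 and 201 CPM, while *Mylip* had a smaller difference, with 33.9 and 40.7 CPM.

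The labelled cell type was checked against its markers. Of 11 macrophage markers 11 were tested, among them *Adgre1* (F4/80) with 1614 ± 215 CPM in control against 1406 ± 206 CPM under NaCl, and their summed level was between 14338 and 16530 CPM in control and between 22327 and 28972 CPM in NaCl, where *Lyz2* alone went from 9817 ± 524 to 19148 ± 3609 CPM. Without *Lyz2* the summed level of the other 10 was 6491, 6033 and 5119 CPM in the control libraries of mice 1, 2 and 3 and 5871, 5724 and 4860 CPM in their NaCl libraries, so it was lower in 3 of 3 mice. With the block 2 of the 11 were higher, *Lyz2* and *Cd14*, and 3 lower, *Mertk*, *Mrc1* and *C1qc*, and the median log2 fold change of the 11 was -0.18. In edgeR without the block, *Lyz2* and *Cd14* were higher (adjusted p = 0.0424 and 0.00699) and 0 were lower. There the adjusted p was 0.12 for *Mertk*, 0.505 for *Mrc1* and 0.393 for *C1qc*. DESeq2 without the block called 2 higher and 1 lower, *Mertk*. Over all genes, 4.6% were higher and 4.3% lower with the block. The shares without it were 0.478% and 0.176% in edgeR and 1.54% and 0.975% in DESeq2. Summed levels of 8 monocyte markers were between 167 and 266 CPM in control and between 146 and 332 CPM in NaCl. Of the 8, 1 was higher and 0 lower in edgeR with or without the block and in DESeq2 without it. That gene was *Ifitm6*, with 2.61 ± 0.211 CPM in control against 28.3 ± 18.2 CPM under NaCl, while the median log2 fold change of the 8 was -0.33 with the block. Summed levels of 9 dendritic cell markers were at most 5.98 CPM, of the 2 tested B cell markers at most 10.4 CPM and of the 3 tested stromal markers at most 4.34 CPM in any library. In the dendritic cell, B cell and stromal lists, edgeR with or without the block and DESeq2 called 0 genes, with 0 at an unadjusted p under 0.05 without the block. None (0) of the 6 erythroid markers reached a total count of 10, and the B cell factor gene *Pax5* had 0 counts in total. Of 5 tested osteoclast markers, 2 were higher and 1 lower with the block, and their summed level was between 579 and 663 CPM in control and between 442 and 569 CPM in NaCl. *Atp6v0d2* weighs most in this sum, with 28283 counts over the 6 libraries, against 4716 for *Dcstamp*, the next. The log2 fold changes of the 5 ranged from -0.49 to 1.44 with the block, with a median of 0.21. The part of other cells in the changes given here was not tested.

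The libraries held from 8520433 to 20123570 counts in control and from 4088065 to 11610020 in NaCl, with the fewest in NaCl replicate 3, which still had between 86 and 13476 counts for each of the 9 genes.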

How the data were processed

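RNA-sequencing of 3 control and 3 NaCl-treated BMDM libraries was analysed. Single-end reads of 75 bp were trimmed by the authors (fastp 0.20.0), then aligned and counted per gene with STAR 2.7.10b, without strand information. The authors deposited a raw count per gene. They also deposited a normalized signal, each count over the DESeq2 size factor of its library, and the factors recomputed from both tables varied across genes by a relative 5e-15 at most. The raw counts were used, and gene symbols were taken from the normalized table. The methods name mm10 with an annotation release of another build, so positions of genes are given by chromosome, and lengths and overlaps come from GENCODE M21.

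edgeR 4.0.16 (glmQLFit, glmQLFTest, TMM) compared NaCl with control over the 15903 genes whose counts summed to 10 or more. Standard errors are the log2 fold change divided by the root of F. The labels tie each NaCl library to the control library of the same mouse, and deviations from the group means correlated across genes within mice 1, 2 and 3 (0.43, 0.15 and 0.22). Between different mice the coefficients ran from -0.35 to 0.12, so the value of mouse 2 was little above them. Results with a replicate block for mouse are therefore printed beside those they change. Other settings tried were fits without 1 library or 1 mouse, DESeq2 1.42.0, the block in both tools, filterByExpr or a minimum total count of 1 as the filter, and scaling by size factors or by total counts. Named genes are the 9 genes, the ligands, the paralogue, tested genes whose exons overlap those of the 9, list genes past the threshold, up to 4 per list past it only with the block, and 3 genes most like *Csf1r*. *Il3ra*, *Atf4* and the marker genes were named after their values were seen. The genes and lists were chosen with earlier results of these data known. The scripts were tested on simulated data. R 4.3.3, Python 3.11.15 and pandas 2.3.3 were used. Some genes are not reported here, and the other assays of the study were not analysed here.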

Additional observations from a re-analysis of the deposited data

How the results depend on the processing

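The direction of each of the 9 genes held in the 16 alternative fits, with 1 exception: *Csf2rb* had a log2 fold change of -0.042 without NaCl replicate 3, the lowest of its fits without 1 library, which reached 0.123 without control replicate 3. Which genes passed the threshold depended on the fit. In the main edgeR test without the block 0 of the 9 were called. With the replicate block 2 were higher and 2 lower in edgeR and in DESeq2, and the block without mouse 1, 2 or 3 gave 2, 2 and 3 higher, where *Csf2ra* was added without mouse 3, and 2 lower. DESeq2 without the block and total count scaling each called 1 higher, *Csf1r*, and a minimum total count of 1 called 2 higher and 2 lower. The 6 fits without 1 library called 0 higher and from 0 to 2 lower, the 2 being *Csf3r* and *Maf* without NaCl replicate 1. Over all genes, the shares called higher and lower were 2.84% and 2.23% in DESeq2 with the block, and 3.14% and 2.79%, 5.11% and 4.46%, and 4.81% and 3.94% in edgeR with it without mouse 1, 2 and 3. They were 0.421% and 0.126% with total count scaling, 1.46% and 1.21% with a minimum total count of 1, and 0.795% and 0.297% without NaCl replicate 1. The cause was not tested for these settings. Over all alternatives the adjusted p ranged from 4.1e-07 to 0.396 for *Csf1r* and from 3.9e-06 to 0.623 for *Cebpb*. It ranged from 6.1e-07 to 0.621 for *Csf3r* and from 6.9e-09 to 0.621 for *Maf*.

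Of the partners and ligands, 0 were lower without the block, 1 with it, 1 in DESeq2 with or without it and with a minimum total count of 1, and 1, 2 and 1 with the block without mouse 1, 2 or 3. Of the M-CSF receptor signalling genes, 1 was lower with the block in either tool and in edgeR without mouse 2, and 0 without mouse 1 or 3. Of the JAK-STAT genes, 2 were higher with the block, 1 with it without mouse 2 or 3, and 0 with it without mouse 1 or in DESeq2 with it. Of the other lineage factors, 1 was higher without the block, against 6 with it, 6, 5 and 7 with it without mouse 1, 2 or 3, 3 in DESeq2 with it, 4 with a minimum total count of 1 and 0 to 1 without 1 library. Against 0 lower, the same settings gave 5, then 3, 6 and 4, then 4, 4 and 0 to 1, and DESeq2 without the block gave 2. NaCl replicate 3, the smallest library, held 21 counts of *Csf1*, 6 of *Spic* and 8 of *Socs3*. *Socs3* had fewer, 4, in control replicate 2. Counts this small limit precision, and the part of the smallest library in this was not tested. The intervals are for the mean change over these 3 mice, and the ratios of single mice can lie outside them. The variance behind the intervals is drawn by edgeR in part from all genes, so their width does not measure the spread of the 3 mice alone. For *Cebpb* with the block the interval was 0.43 to 0.97, whereas mice 2 and 3 had log2 ratios of 1.01 and 0.34. For *Csf1r* the interval was 0.47 to 0.98, and the ratios of 0.52, 0.97 and 0.67 lie within it.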
